A study of Mus musculus with 144 samples.

Results

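The genes described here are 10 targets of Wnt signalling or markers of the pericentral zone of the liver lobule: Axin2, Lgr5, Tbx3, Rnf43, Znrf3, Oat, Lect2, Slc1a2, Rhbg and Nkd1. They were taken by name, matched by symbol to Ensembl identifiers, out of the 55359 genes counted in each library. The rule itself uses no measured value.

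Hepatocytes next to the central vein receive Wnt ligands and R-spondins, which come largely from the endothelium of that vein. There, stabilised beta-catenin acts with TCF/LEF transcription factors to switch on feedback genes of the pathway and a set of enzymes and transporters that handle glutamine, ammonia and drugs. Hepatocytes taken out of the liver and plated are known to lose much of this zonal expression.

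The series is a time course of primary hepatocytes on collagen, treated with 10 nM TCDD, a ligand of the aryl hydrocarbon receptor (AHR), or with DMSO vehicle, and measured by RNA-Seq. All cells came from male C57BL/6NCrl mice labelled as 28 days old. Cells labelled WT were compared with cells labelled PkmΔDRE, from a mouse line that lacks a dioxin response element (DRE, the DNA motif that AHR binds) within the Pkm gene in every cell of the body. Libraries were made at 2, 4, 8 and 12 h on the first day and then at 24, 48, 72, 96 and 120 h, with 4 libraries in each of 36 groups. The labels do not say whether the 4 libraries of a group came from separate mice, so the p-values measure the spread between these libraries, which may be technical. The cells had attached for some hours in serum before treatment, so the 2 h vehicle libraries are not fresh liver.

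Gene counts per library ran from 13588848 to 30719161, with a median of 18011825. Cyp1a1, the standard AHR target, had a median of 3.51 counts per 1000000 scaled counts (CPM) in vehicle and 3449 in TCDD libraries labelled WT, while the PkmΔDRE medians were 3.81 and 4221 CPM. In libraries labelled WT, however, 2 vehicle libraries had high Cyp1a1 (3253 CPM in library 1 at 48 h and 1641 in library 3 at 96 h), and 2 TCDD libraries had little (1.36 CPM in library 4 at 2 h and 27.6 in library 4 at 72 h). In libraries labelled PkmΔDRE, library 4 of the 4 h vehicle group and library 4 of the 96 h vehicle group stood apart from their groups in the pericentral gene Cyp2e1 and in Oat. In Oat each was close to the hour of the other. The 4 h library held 11.1 CPM, against 8.89 to 12.5 CPM in the rest of the 96 h group. The 96 h library held 187 CPM, against 198 to 269 CPM in the rest of the 4 h group. Whether their hours were exchanged was not tested. Pkm itself went against the labels at 8 h: libraries labelled WT had 45.5 to 89.6 CPM in vehicle and 28.7 to 60.4 in TCDD, while libraries labelled PkmΔDRE, the line in which TCDD induction of Pkm should be lost, had 41.2 to 90 in vehicle and 116.1 to 172.4 in TCDD. At 12, 24 and 48 h every TCDD library labelled PkmΔDRE was again above every vehicle library (at 12 h, 91.4 to 197.9 against 36.6 to 54.9 CPM), while the WT groups overlapped. None of these Pkm differences in PkmΔDRE passed the test described below (adjusted p = 0.13 at 8 h). The groups are therefore called by their labels throughout. Libraries of a group are numbered in the order in which they are listed, and values are given in that order.

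In the GRCm38 annotation, which differs from the GRCm39 build used for the counts, all 10 members are protein-coding genes. Axin2 lies on chromosome 11 from 108920349 to 108950783, Rnf43 on chromosome 11 from 87662722 to 87735539, Znrf3 on chromosome 11 from 5276324 to 5444847, Lgr5 on chromosome 10 from 115450311 to 115587780 and Nkd1 on chromosome 8 from 88521354 to 88594884. Tbx3 lies on chromosome 5 from 119670669 to 119684724, Oat on chromosome 7 from 132557478 to 132576398, Lect2 on chromosome 13 from 56542464 to 56548502, Slc1a2 on chromosome 2 from 102658659 to 102790784 and Rhbg on chromosome 3 from 88242874 to 88254709. Reads were counted over the exons of each gene without regard to strand, so reads of an overlapping antisense gene would be counted too.

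RefSeq promoter windows (GRCm38.p6, 250 bases before to 50 after the annotated start) were held for 6 members, in 7 windows, since Rnf43 has 2. Lgr5, Tbx3, Znrf3 and Rhbg had no entry. The windows of Lect2, Slc1a2 and the first start of Rnf43 are shown because the data below turn on these genes; capitals mark the DRE core GCGTG, the TCF/LEF core CTTTG and its longer form CTTTGAT, searched on both strands, so that CACGC is the first motif read on the other strand and CAAAG the second. The longer form contains the core.
Lect2 (chr13:56548489-56548788, minus strand): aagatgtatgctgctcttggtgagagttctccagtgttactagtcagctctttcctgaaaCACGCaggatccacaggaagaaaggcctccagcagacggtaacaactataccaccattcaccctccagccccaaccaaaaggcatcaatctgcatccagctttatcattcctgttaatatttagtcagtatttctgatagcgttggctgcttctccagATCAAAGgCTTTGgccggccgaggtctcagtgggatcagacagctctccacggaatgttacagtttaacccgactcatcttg
Slc1a2 (chr2:102706188-102706487, plus strand): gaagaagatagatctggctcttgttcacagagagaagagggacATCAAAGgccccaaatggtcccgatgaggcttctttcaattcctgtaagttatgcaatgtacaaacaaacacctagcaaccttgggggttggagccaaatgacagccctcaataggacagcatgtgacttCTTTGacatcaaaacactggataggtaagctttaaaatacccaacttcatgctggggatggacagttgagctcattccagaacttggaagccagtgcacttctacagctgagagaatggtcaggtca
Rnf43, first start (chr11:87662837-87663136, plus strand): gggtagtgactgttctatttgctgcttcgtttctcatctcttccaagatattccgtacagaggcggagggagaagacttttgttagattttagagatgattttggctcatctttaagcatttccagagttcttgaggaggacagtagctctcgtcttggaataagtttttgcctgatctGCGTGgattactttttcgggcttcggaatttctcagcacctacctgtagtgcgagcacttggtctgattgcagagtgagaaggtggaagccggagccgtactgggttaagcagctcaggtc

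Lect2 held a DRE core that starts 190 bases before its start (−190), and 2 TCF/LEF cores at −30 and −24, the first of them in the longer form from −32. Slc1a2 held 2 TCF/LEF cores, at −205 and −77, the first in the longer form from −207, and no DRE core. Its window, from 102706188, lies inside the gene as annotated above, which begins at 102658659. The positions thus count from an internal start. The first Rnf43 window held a DRE core at −71 and no TCF/LEF core. Nkd1 held a DRE core at −160, and the windows of Axin2, Oat and the second Rnf43 start held none of the 3 motifs. The Nkd1 window, from 88527383, is also internal, since the annotated gene begins at 88521354. Both Rnf43 windows, from 87662837 and 87699647, lie inside that gene as well, which begins at 87662722. Their positions too count from internal starts. Of all 32851 mouse promoter windows, 32.4% held the DRE core, 53.9% the TCF/LEF core and 3.73% the longer form. These are letter matches in short windows only and say nothing about binding.

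The first question was how much of each member the cells expressed and how the level moved with time in culture without TCDD. CPM values were scaled for library composition by edgeR's trimmed mean of M-values (TMM). In vehicle libraries at 2 h, the 3 pericentral metabolic and secreted genes Oat, Lect2 and Slc1a2 and the feedback gene Rnf43 were at their highest, and all of these fell over the time course. Group means of Znrf3 lay between 6.49 and 13.95 CPM and those of Tbx3 between 1.51 and 3.42 CPM, and Axin2, Nkd1, Lgr5 and Rhbg were close to the detection floor at every time.

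**Figure D1:**
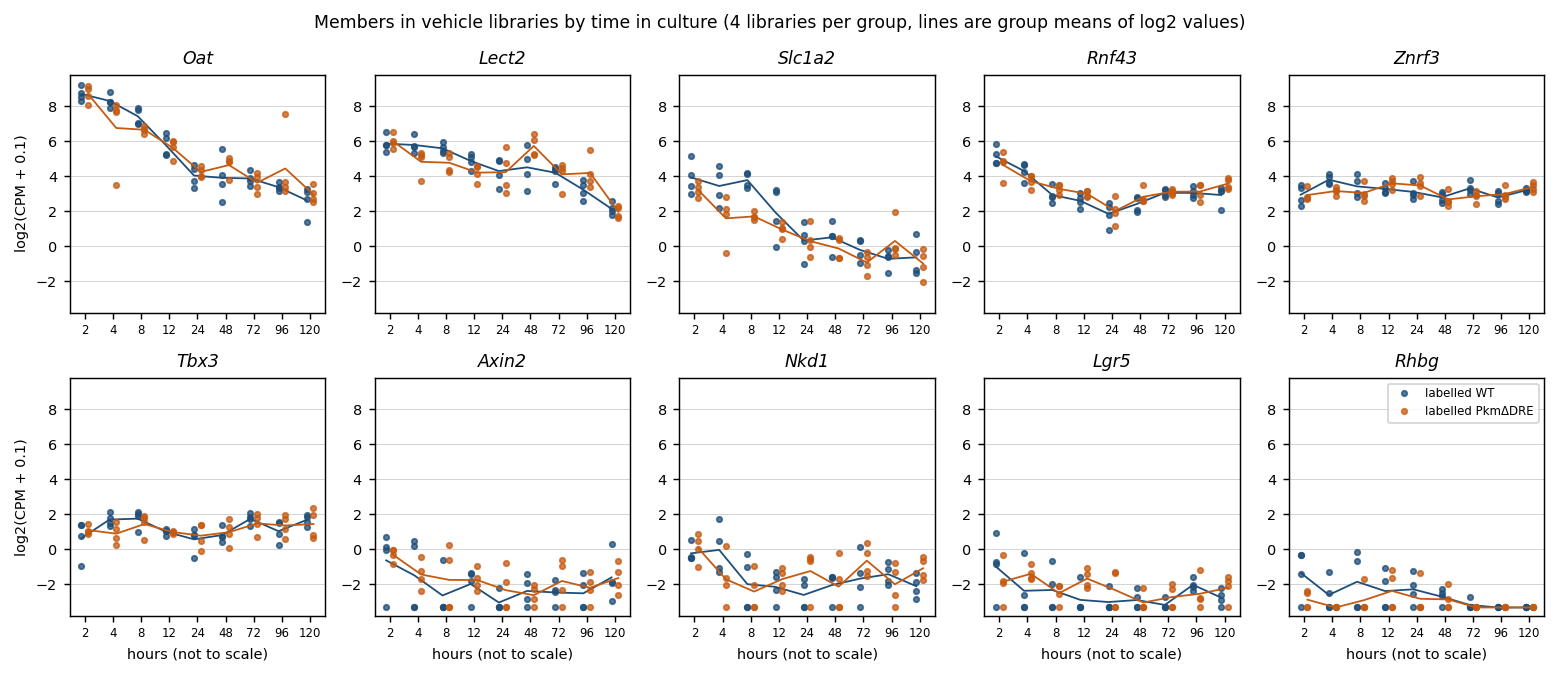
Levels of the 10 members in vehicle libraries at each of 9 times, as log2(CPM + 0.1), with 1 point per library and a line through the group means. Oat, Slc1a2 and Lect2 are far lower at 120 than at 2 h, Lect2 with a high point at 48 h in PkmΔDRE on the way, Rnf43 dips to its lowest at 24 h and is higher again at 120 h, and the 4 panels from Axin2 to Rhbg lie near the floor.

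Among the feedback genes, Rnf43 encodes a membrane ubiquitin ligase that removes Frizzled receptors from the cell surface. Its vehicle level at 2 h was 37.6, 26.3, 56.1 and 26.5 CPM in WT and 28.5, 11.9, 41.3 and 27.9 CPM in PkmΔDRE. At 24 h it was 5.44, 3.34, 4.52 and 1.77 CPM, and 3.58, 2.11, 4.29 and 7.26 CPM. At 120 h it stood at 8.92, 4.01, 9.88 and 8.74 CPM, and 13.5, 9.58, 10.4 and 14.4 CPM. Every 24 h library was below every 2 h library of its label, and in libraries labelled PkmΔDRE every 120 h library was above every 24 h library. Changes were tested by the quasi-likelihood F test of edgeR, p-values were adjusted across every gene tested by the Benjamini-Hochberg method, and a change was called at adjusted p below 0.05 with a fold change of at least 1.5. The log2 fold change from 2 to 24 h was −3.25 (SE 0.35, adjusted p = 3.8e-09) in WT and −2.63 (SE 0.35, adjusted p = 2.5e-06) in PkmΔDRE. From 24 to 120 h Rnf43 rose by 1.10 on the log2 scale (SE 0.33, adjusted p = 0.0087) in WT and by 1.43 (SE 0.34, adjusted p = 0.0033) in PkmΔDRE. It was still lower at 120 than at 2 h, by −2.15 in WT and −1.20 in PkmΔDRE on the log2 scale, but with plain library totals in place of TMM the PkmΔDRE value turned to 0.19 (adjusted p = 0.58).

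Znrf3, the paralogue of Rnf43 with the same action on Frizzled, did not follow it. Its mean vehicle level was 7.98 CPM (SD 2.9, n = 4) at 2 h and 9.02 CPM at 120 h in WT, and 7.62 CPM and 10.4 CPM in PkmΔDRE. The log2 fold changes over this interval, 0.23 in WT and 0.45 in PkmΔDRE, were close to the median of all genes and did not pass the test under TMM. Under library totals both passed as higher, at 1.44 and 1.81, beside medians of all genes of 1.43 and 1.57.

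Axin2 is a scaffold of the complex that degrades beta-catenin, and Nkd1 binds Dishevelled and dampens the signal; both are induced by the pathway they restrain. Axin2 vehicle counts at 2 h were 15, 0, 11 and 10 reads in WT and 9, 11, 9 and 5 in PkmΔDRE, against 0, 0, 4 and 0 and 0, 4, 0 and 8 reads at 24 h. Nkd1 counts went from 6, 13, 7 and 7 reads at 2 h to 6, 3, 0 and 0 at 24 h in WT, and from 4, 22, 17 and 10 to 12, 0, 11 and 11 in PkmΔDRE. Both genes were called lower from 2 to 24 h in WT (adjusted p = 0.020 for Axin2 and 0.031 for Nkd1), and in neither was the change called in PkmΔDRE. With so few reads the fitted folds depend on the prior count, so none is given; the Axin2 call was lost in 2 and the Nkd1 call in 3 of 16 fits that each left out 1 library.

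Lgr5, a receptor for R-spondins that marks pericentral hepatocytes, was at 0 reads in 55 libraries of the series and reached at most 30 reads in any. Rhbg, an ammonia transporter of the same zone, was at 0 in 99 libraries, had at most 10 reads, and was at 0 in every vehicle and TCDD library at 96 and 120 h. A count of 0 allows up to 3 reads, which is 0.0707 to 0.316 CPM depending on the library and covers counting error only. Rhbg did not pass the filter on low counts in any comparison, and Lgr5 passed it only at 2 h.

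Tbx3, a transcription factor regulated by beta-catenin in the liver, was at 2.54, 0.407, 1.57 and 2.48 CPM in WT vehicle at 2 h and at 3.56, 2.35, 3.84 and 2.87 CPM at 120 h. The groups overlapped, and the log2 fold change of 0.90 (SE 0.42) had an adjusted p of 0.058. From 24 to 120 h Tbx3 rose in WT, by 1.11 on the log2 scale (SE 0.41, adjusted p = 0.029), a call lost in 4 of 16 fits without 1 library. In PkmΔDRE it was not called. Under library totals Tbx3 passed as higher from 2 to 120 h under both labels, at 2.10 and 1.94.

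Oat encodes ornithine aminotransferase, which in the last pericentral cell layers links ornithine to glutamate for glutamine synthesis. Its vehicle level at 2 h was 311, 595, 434 and 363 CPM in WT and 502, 262, 573 and 380 CPM in PkmΔDRE. By 24 h it was 13.2, 9.97, 21 and 25.1 CPM, and 20.6, 15.5, 16 and 24.1 CPM. At 120 h it was 6.37, 2.51, 9.68 and 8.45 CPM, and 11.7, 6.27, 5.63 and 8.14 CPM. The highest library at 24 h was thus far below the lowest at 2 h under both labels. The log2 fold change from 2 to 120 h was −5.92 (SE 0.51, adjusted p = 1.2e-11) in WT, a 60.4-fold lower level, and −5.76 (SE 0.83, adjusted p = 4.6e-06) in PkmΔDRE.

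Slc1a2, the glutamate transporter GLT-1 that pericentral hepatocytes share with astrocytes, followed the same course at a lower level. Vehicle libraries at 2 h held 16.9, 36, 7.83 and 10.9 CPM in WT and 8.4, 6.49, 10.2 and 13.2 CPM in PkmΔDRE. At 120 h they held 0.284, 0.243, 1.51 and 0.697 CPM, and 0.142, 0.335, 0.567 and 0.805 CPM, with no overlap with 2 h. The log2 fold changes were −4.65 (SE 0.72, adjusted p = 1.7e-06) and −4.35 (SE 0.67, adjusted p = 1.0e-05).

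Lect2, a secreted hepatocyte protein and an established beta-catenin target, was lower at 24 than at 2 h and lower again at 120 h, but not in an even course. Vehicle levels were 53.8, 90.2, 54.1 and 41.9 CPM at 2 h and 16.6, 9.51, 29.1 and 30.7 CPM at 24 h in WT, and 64, 46.5, 90.8 and 59.9 and then 11.3, 8.01, 26.3 and 49.6 CPM in PkmΔDRE. At 48 h the PkmΔDRE libraries held 37.3, 37.6, 65.5 and 83.6 CPM, the last 2 within the 2 h range, and those of WT 8.85, 17.3, 54.1 and 30.9 CPM; the step from 24 to 48 h was not tested. At 120 h the levels were 3.85, 5.83, 4.43 and 3.37 CPM, and 4.88, 2.95, 3.21 and 4.47 CPM. The 24 h libraries of PkmΔDRE still overlapped those of 2 h; at 120 h no library of either label did. From 2 to 24 h the log2 fold change was −1.49 in WT and −1.42 in PkmΔDRE (adjusted p = 0.0017 and 0.022), and from 24 to 120 h a further −2.25 and −2.66 (adjusted p = 4.0e-05 and 4.8e-04). The PkmΔDRE call from 2 to 24 h was lost in 3 of 16 fits without 1 library, with an adjusted p up to 0.081. Under library totals neither label passed from 2 to 24 h, at −0.68 in WT (adjusted p = 0.11) and −0.55 in PkmΔDRE (adjusted p = 0.20), whereas the later interval passed under both.

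Levels can be compared between genes per kilobase of exon. At 2 h the order in WT vehicle was Oat at 180 CPM per kilobase, Lect2 at 65.3, Rnf43 at 5.58, Slc1a2 at 1.36 and Znrf3 at 1.01. In PkmΔDRE it was 182, 71.1, 4.18, 0.728 and 0.965, so that Slc1a2 and Znrf3, whose libraries overlapped in spread, changed places. At 120 h Lect2 stood first at 4.75 and 4.22 CPM per kilobase, followed by Oat at 2.86 and 3.36, Rnf43 at 1.20 and 1.83 and Znrf3 at 1.14 and 1.32. The libraries of each neighbouring pair in this order overlapped at 120 h, except those of Oat and Rnf43 in PkmΔDRE.

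In all, 16 of the 32 member-by-interval tests in WT and 12 of 32 in PkmΔDRE were called, out of 40 each had all members passed the filter. All 6 members called from 2 to 24 h in WT fell (Oat, Slc1a2, Rnf43, Lect2, Axin2 and Nkd1), as did the 4 in PkmΔDRE (Oat, Slc1a2, Rnf43 and Lect2), and these 4 were lower again from 2 to 120 h under both labels. The share of all genes called, higher and then lower, was 15.9% and 16% from 2 to 8 h, 25.8% and 20% from 2 to 24 h, 17% and 18.6% from 24 to 120 h, and 33.4% and 24.5% from 2 to 120 h in WT. In PkmΔDRE it was 5.52% and 5.5%, 18% and 15.2%, 9.38% and 14%, and 26.8% and 22.7%. Leaving out the 2 PkmΔDRE vehicle libraries that stood apart raised the PkmΔDRE count from 12 to 16.

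These values depend on scaling because the make-up of the libraries changed: the 10 most abundant genes took a median of 23.4% of counts at 2 h and 10.9% at 120 h. Under TMM 5291 genes were higher and 3887 lower from 2 to 120 h in WT, and 4272 and 3623 in PkmΔDRE; under plain library totals the splits were 10001 and 1546, and 9651 and 1402. The median of all genes moved from 0.21 to 1.43 in WT and from 0.24 to 1.57 in PkmΔDRE. Oat, Slc1a2 and Lect2 were called lower from 2 to 120 h under both scalings and both labels. Over all 4 intervals, library totals lost 7 of the member calls and added 8. The lost ones were Lect2 from 2 to 24 h and Oat from 2 to 8 h under both labels, Oat from 24 to 120 h and Nkd1 from 2 to 24 h in WT, and Rnf43 from 2 to 120 h in PkmΔDRE. All added ones were higher values of Znrf3 or Tbx3.

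**Figure D2:**
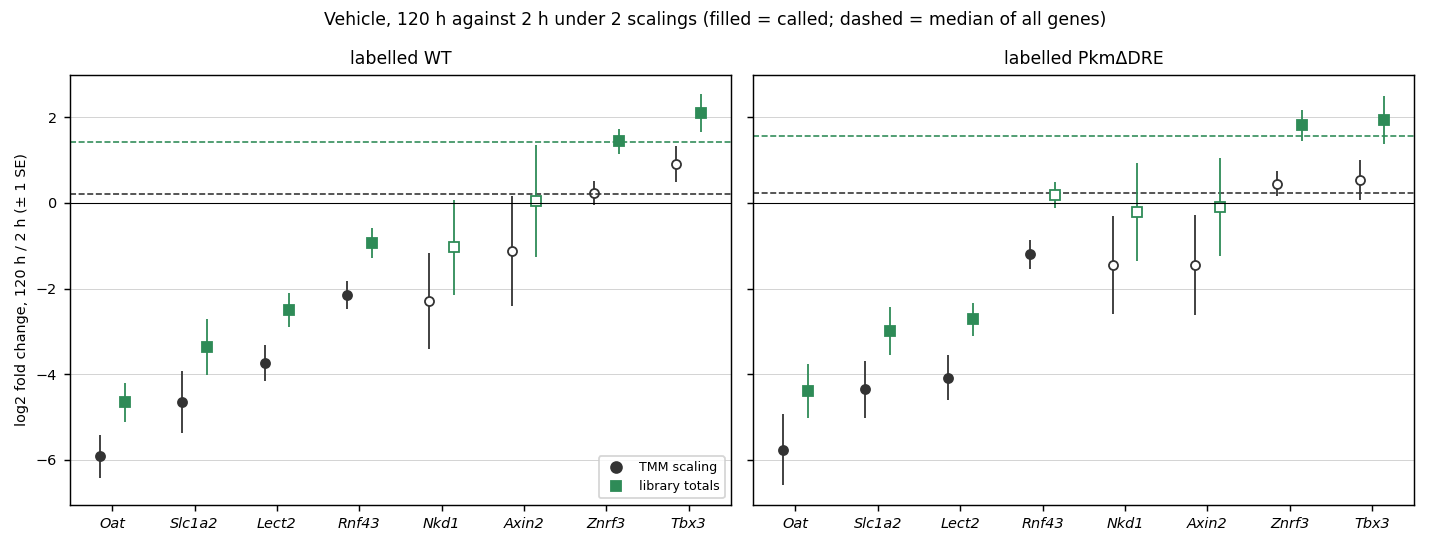
Log2 fold change from 2 to 120 h in vehicle for the 8 members tested, with bars of 1 SE, under TMM (circles) and library totals (squares); filled symbols passed the test and dashed lines mark the median of all genes. Oat, Slc1a2 and Lect2 are below 0 in all cases, while Rnf43 in PkmΔDRE moves from −1.20 to 0.19.

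Other genes of the zone and the pathway were counted from fixed lists. The list counts from 2 to 120 h stand beside shares of all genes of 33.4% higher and 24.5% lower in WT. In PkmΔDRE these shares were 26.8% and 22.7%. Of 16 other pericentral genes tested, 13 were lower and 1 higher from 2 to 120 h under each label, with a median log2 fold change of −4.64 in WT and −4.99 in PkmΔDRE. Cyp2e1, the main ethanol-oxidising cytochrome P450, had a mean of 5037 CPM in WT at 2 h and at most 0.721 CPM in any WT vehicle library at 120 h. Genes of the opposite, periportal zone fell as well: 16 of 18 were lower and 1 higher in WT (median −6.38) and 17 lower and none higher in PkmΔDRE (median −6.99). All 7 hepatocyte markers tested were also lower under each label, with medians of −4.22 and −4.16, and their summed vehicle level had a median of 177819 CPM at 2 h and 8793 CPM at 120 h over both labels. In such bulk libraries fewer cells of a type and less RNA per cell cannot be told apart.

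Glul, glutamine synthetase and the classic gene of the innermost pericentral layer, had a course like that of Rnf43. Its mean vehicle level was 1031 CPM at 2 h, 91.2 CPM at 24 h and 138.8 CPM at 120 h in WT, and 948, 59.8 and 143.004 CPM in PkmΔDRE. From 24 to 120 h it rose by 0.66 on the log2 scale in WT (SE 0.22, adjusted p = 0.018) and by 1.21 in PkmΔDRE (SE 0.43, adjusted p = 0.040).

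Components of the Wnt pathway moved less. From 2 to 120 h, 9 of 25 tested were higher and 3 lower in WT, and 11 higher and 1 lower in PkmΔDRE, with medians of 0.39 and 0.58. Of all genes, 33.4% were called higher in WT and 26.8% in PkmΔDRE. Tcf7l2, the main hepatic TCF factor, was higher by 0.84 and 1.35. Ctnnb1, which encodes beta-catenin itself, had values of 0.56 in WT, which is under the fold threshold, and 0.38 in PkmΔDRE. Lgr4, the R-spondin receptor related to Lgr5, was at −0.13 and 0.33 and was not called. Under library totals these values move up with the medians given above.

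Of the ligands and R-spondins, 8 of 13 passed the filter. Wnt2, an endothelial ligand in the liver, had a mean of 1.36 CPM in WT and 2.02 CPM in PkmΔDRE vehicle at 2 h and at most 0.126 and 0.134 CPM in any library at 120 h, and was called lower under both labels. Wnt4, which the list rule named for its size, was called higher under both labels from 2 to 120 h, at 6.10 (SE 0.77) and 7.08 (SE 1.4). Wnt9b, the ligand of central vein endothelium, was at 0 in every WT vehicle library at 2 and 24 h and at most 0.361 CPM in PkmΔDRE at 2 h, and Rspo3 did not exceed 0.995 CPM at 2, 24 or 120 h. Markers of endothelium fell with these: 6 of 8 were lower in WT and 5 of 8 in PkmΔDRE, and their summed vehicle level had a median of 425 CPM at 2 h and 92.3 CPM at 120 h. The summed macrophage markers went from a median of 257 to 40.6 CPM, while stellate cell markers went from 24.8 to 75.03 and cholangiocyte markers from 87.2 to 168 CPM. The part that other cell types had in the members' values was not tested.

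Secreted antagonists and other beta-catenin targets were mixed, in short lists to be read beside the shares of all genes given above. Of 5 antagonists tested, 3 were higher and 1 lower from 2 to 120 h in WT, and 1 higher and 1 lower in PkmΔDRE. Of the other beta-catenin targets, 3 of 8 were higher and 3 lower in WT, and 4 of 9 higher and 2 lower in PkmΔDRE. Notum, a secreted inactivator of Wnt proteins that is on both lists, was called lower under both labels, whereas Bmp4 was higher by 5.25 (SE 0.77) in WT and 4.63 (SE 1.2) in PkmΔDRE.

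**Figure D3:**
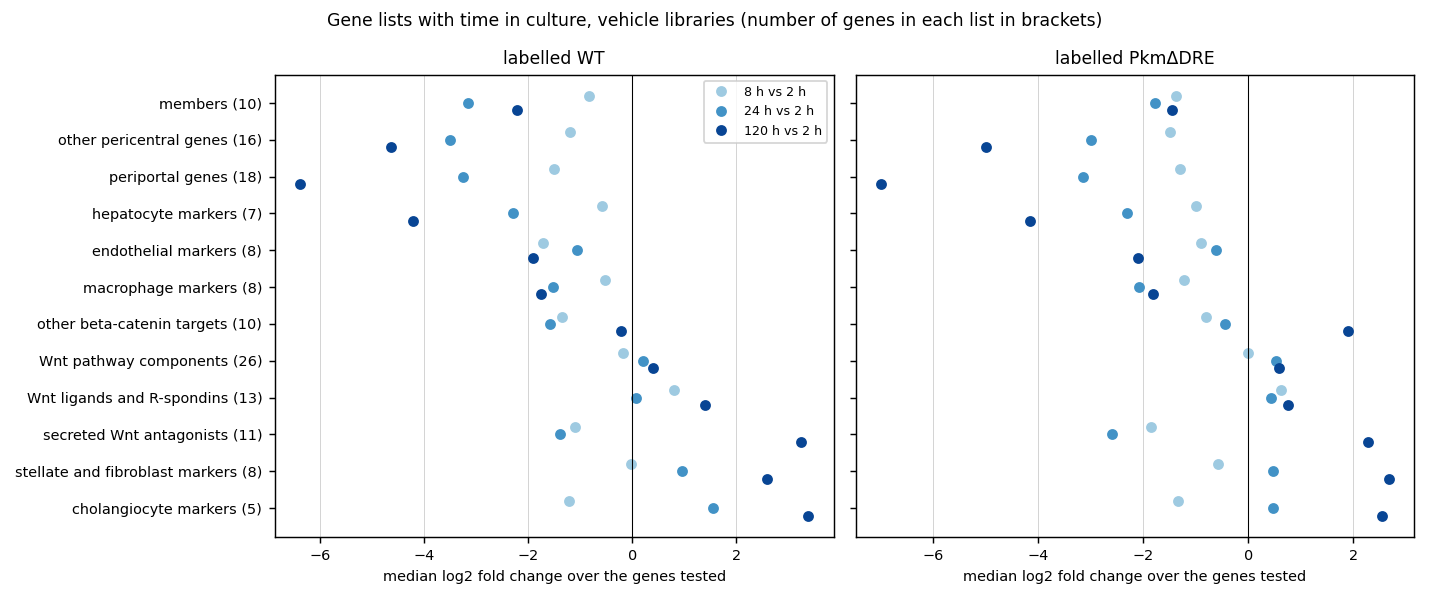
Median log2 fold change of each fixed gene list against 2 h in vehicle, at 8, 24 and 120 h, over the genes of the list that passed the filter. Pericentral, periportal and hepatocyte lists move far to the left by 120 h, while Wnt pathway components stay near 0.

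Across the 36 group means, Oat correlated with Slc1a2 and Lect2 at Spearman's rho of 0.95 and 0.92, and Rnf43 with Oat at 0.56. These points share time courses and libraries, so the values are descriptive. Among 8039 genes averaging 10 CPM or more, those with a pattern most like Oat were Lhpp, Acadvl and Ndrg2 (rho from 0.98 to 0.99), those most like Lect2 were Nnmt, Amacr and Prdx4 (0.94 to 0.96), and those most like Slc1a2 were Cyp3a11, Mup7 and Mup14 (0.97 to 0.98). Mup genes are near-identical copies, and their counts are uncertain. Among those most like Rnf43 were Slc17a4 at 0.91 and Glul at 0.90. Znrf3 and Tbx3 had no neighbour above 0.76 and 0.69, with Pus7 and Rai1 first. For the 4 members near the floor the nearest were Fmo1 for Axin2 at 0.81, Efna1 for Nkd1 at 0.65, Slc17a2 for Lgr5 at 0.82 and Alpl for Rhbg at 0.83.

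The second question was whether TCDD changed the members at each time, within each label. Lect2 fell with TCDD at 8 and 96 h in WT, and its log2 fold change was below 0 at 8 of 9 times in WT and 7 of 9 in PkmΔDRE. How many of all genes kept the same sign at so many times was not counted. Oat also passed at 8 h in WT. No member passed in PkmΔDRE, and no member passed as higher at any time under either label.

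**Figure D4:**
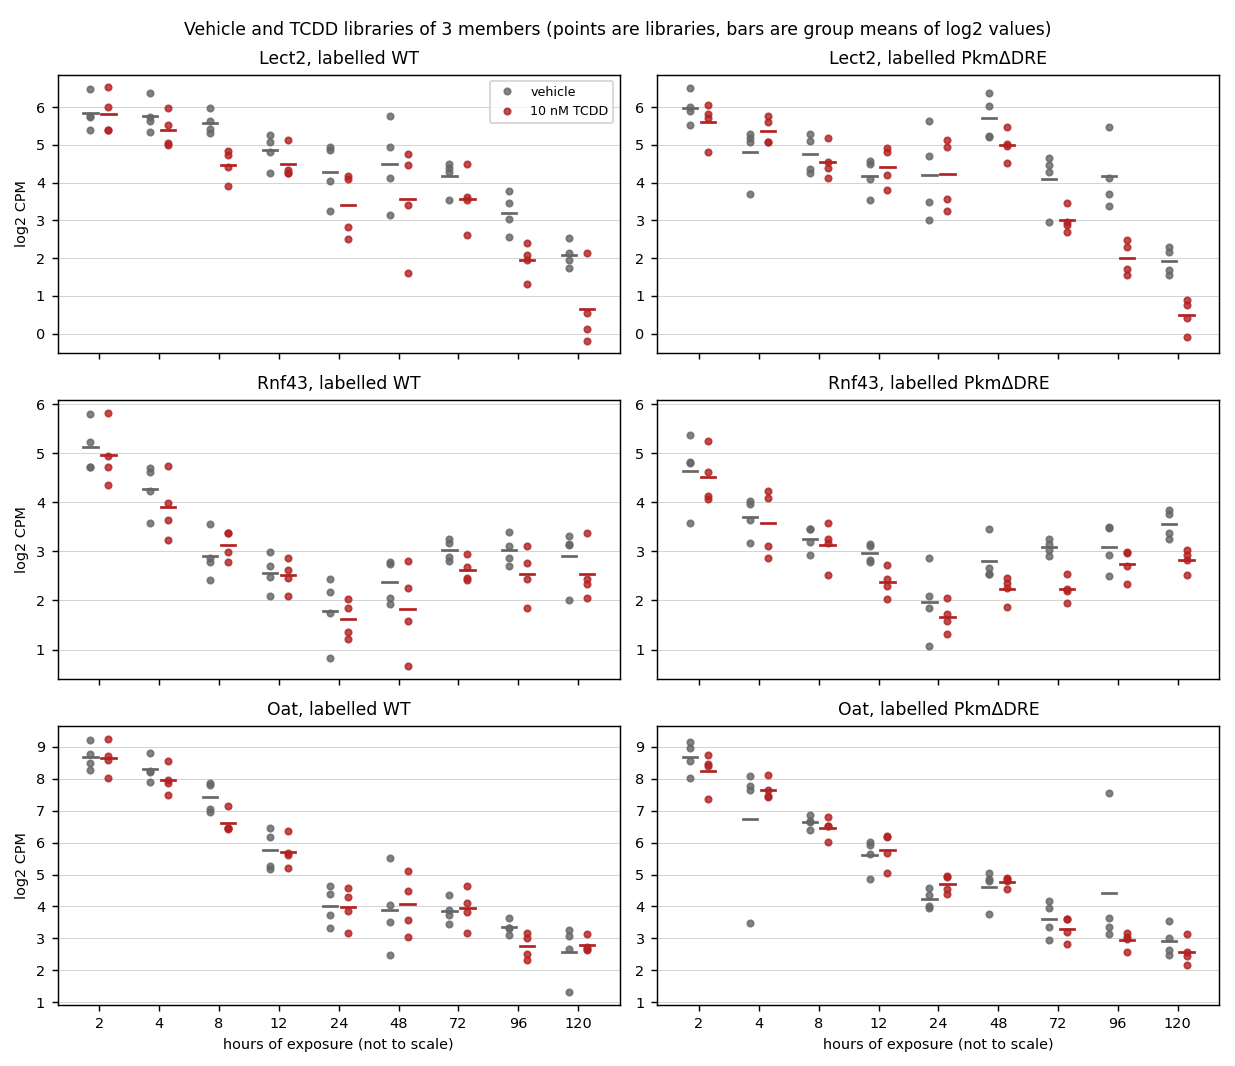
Log2 CPM of Lect2, Rnf43 and Oat in each vehicle (grey) and TCDD (red) library at 9 times, with group means as bars, in libraries labelled WT (left) and PkmΔDRE (right). The TCDD points of Lect2 sit below all vehicle points at 8 and 96 h in WT and at 96 and 120 h in PkmΔDRE.

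At 8 h in WT, Lect2 was at 49.6, 62.7, 39.9 and 42.5 CPM in vehicle and at 26.4, 28.5, 15 and 21.4 CPM in TCDD libraries. All 4 TCDD libraries were below all 4 vehicle libraries. The level was 1.96-fold lower, a log2 fold change of −0.97 (SE 0.22, adjusted p = 0.0043). At 96 h the vehicle libraries held 5.87, 8.19, 11 and 13.6 CPM and the TCDD libraries 2.48, 4.26, 5.31 and 3.84 CPM, again with no overlap. The log2 fold change was −1.19 (SE 0.27, adjusted p = 0.0083), and −1.12 (adjusted p = 0.021) without library 3 of the vehicle group, which had high Cyp1a1. The share of uniquely mapped read pairs that fell on no gene also differed: at 8 h it was 4.89% to 5.99% in vehicle and 8.36% to 21.9% in TCDD libraries without overlap, TCDD library 1 being the highest, and at 96 h 6.21% to 9.40% and 9.08% to 11.8%. With this share as a covariate Lect2 still passed at 8 h (−1.09, adjusted p = 0.012) but not at 96 h (−0.58, adjusted p = 0.24). Without TCDD library 1 the 8 h value was −1.03 (adjusted p = 0.0041). Neither call was met when all libraries shared 1 fit, where the adjusted p was 0.063 at 8 h and 0.29 at 96 h.

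Oat in WT at 8 h was at 223, 233, 131.8 and 125.5 CPM in vehicle and at 87.5, 140.97, 85.8 and 87.7 CPM in TCDD. The second TCDD library lay within the vehicle range and the other 3 below it. The log2 fold change of −0.70 (SE 0.24, adjusted p = 0.030) did not pass in 5 of 8 fits that left out 1 library (TCDD library 1, 3 or 4 or vehicle library 1 or 2), with an adjusted p up to 0.096, nor under library totals (adjusted p = 0.12), nor with that covariate (−0.52, adjusted p = 0.20).

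These calls belong to comparisons in which many genes passed. At 8 h in WT 37.4% of all genes tested were called, 13.6% of all genes as lower, beside 2 of 6 members, both lower. At 96 h the share was 15.1% of genes, with 5% called lower, beside 1 of 6 members. At the other times in WT no member was called, and the share was 0% at 2, 4 and 72 h. It reached 0.0321% for the 12 h libraries, 0.373% for those of 24 h, 0.00763% for those of 48 h and 1.46% for those of 120 h. The WT comparisons at 2, 48 and 72 h each included a library whose Cyp1a1 went against its treatment label. Without those libraries no member was called at these times either. In PkmΔDRE the share was 0% at 2 and 4 h. It stood at 0.106% for the 8 h libraries, 0.024% for those of 12 h, 0.016% for those of 24 h and 0.404% for those of 48 h. Later it was 1.13% for the 72 h libraries, 0.0793% for those of 96 h and 0.633% for those of 120 h. In that label 0 of 56 member tests were called by edgeR, 9 of them had an unadjusted p below 0.05, and 5 were called by DESeq2. The shares of all genes here and below are those of edgeR. No share called by DESeq2 is given, so its member calls cannot be set beside these shares. In WT 3 of 58 member tests were called and 6 had an unadjusted p below 0.05. These were 2 of 6 members each at 8, 96 and 120 h, beside 6714 of 12392, 6109 of 13793 and 2310 of 14305 genes. In PkmΔDRE they were 1 of 6 at 12 and at 48 h, 2 of 6 at 72 h, 3 of 6 at 96 h and 2 of 7 at 120 h. The genes below 0.05 there were 1190 of 12485, 853 of 12876, 1464 of 13621, 998 of 13866 and 1069 of 14373.

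Marker levels moved with some of these. At 8 h in WT the summed level of 7 hepatocyte markers was 82780 to 100406 CPM in vehicle and 68128 to 73317 CPM in TCDD, and that of 8 macrophage markers 174 to 219 and 61.4 to 120.8 CPM. The sum of 8 stellate cell and fibroblast markers at 8 h was 15.6 to 18.99 CPM in vehicle and 46.5 to 90.9 CPM in TCDD. None of these 3 sums overlapped between the groups. The endothelial sum did, at 117.4 to 187.0 CPM in vehicle and 107.4 to 167.0 CPM in TCDD. So did the cholangiocyte sum, at 13.2 to 30.2 and 9.67 to 19.8 CPM. At 96 h the hepatocyte sum was 7458 to 14585 CPM in vehicle and 13058 to 15168 CPM in TCDD, the sum of 8 endothelial markers was 101.8 to 130.2 and 69.03 to 88.4 CPM and that of 5 cholangiocyte markers 248 to 287 and 122.3 to 140.5 CPM. The part of any of these markers in the Lect2 and Oat values was not tested.

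The other values of Lect2 did not pass the test. At 120 h the WT vehicle libraries held 3.85, 5.83, 4.43 and 3.37 CPM and the TCDD libraries 0.882, 1.46, 4.36 and 1.09 CPM. The third TCDD library lay within the vehicle range and the other 3 below it. The log2 fold change was −1.25 (SE 0.45, adjusted p = 0.21), and −1.96 (adjusted p = 0.0062) without the third TCDD library. That was the only pass in 8 fits that each left out 1 library, and the adjusted p reached 0.48 in the others. At 24 and 48 h it was −0.74 and −0.80, with overlapping groups. The vehicle library with high Cyp1a1 at 48 h had the lowest Lect2 level of its group, 8.85 CPM. With the listed order of libraries as a block the 24 h value was −0.79 and passed (adjusted p = 0.014), an order that the labels do not give as a pairing.

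In PkmΔDRE, Lect2 at 120 h was at 4.88, 2.95, 3.21 and 4.47 CPM in vehicle and at 1.33, 1.7, 1.85 and 0.942 CPM in TCDD. All TCDD libraries were below all vehicle libraries, with a log2 fold change of −1.41 (SE 0.31, adjusted p = 0.086). The hepatocyte marker sum at that time was 7653 to 9995 CPM in vehicle and 7804 to 15432 CPM in TCDD. At 72 h the vehicle libraries held 7.79, 22.3, 25 and 19.4 CPM and the TCDD libraries 6.43, 11, 7.41 and 7.8 CPM.

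The first of those vehicle libraries lay within the TCDD range, and the log2 fold change of −1.18 (SE 0.34, adjusted p = 0.16) became −1.43 (adjusted p = 0.0063) without it. No other of the 8 fits that each left out 1 library passed, with an adjusted p up to 0.46. At 96 h the values were 17.5, 13, 10.5 and 44.2 CPM in vehicle and 3.28, 2.93, 5.54 and 4.94 CPM in TCDD, with no overlap. The log2 fold change was −2.40 (SE 0.50, adjusted p = 0.24). Without library 4 of the vehicle group, which stood apart, it was −1.75 and passed (adjusted p = 0.011). Of the 8 fits without 1 library this alone passed, and the adjusted p went up to 0.82.

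Rnf43 had smaller differences, below 0 at 8 of 9 times under each label. In WT 0 of these 9 values had an unadjusted p below 0.05, and the value at 8 h was above 0, at 0.31 (SE 0.28). At 120 h in PkmΔDRE it was at 13.5, 9.58, 10.4 and 14.4 CPM in vehicle and at 7.11, 5.73, 7.57 and 8.15 CPM in TCDD. At 72 h it was at 9.59, 7.54, 8.83 and 8.21 CPM in vehicle and at 3.84, 4.58, 4.74 and 5.83 CPM in TCDD. The groups did not overlap at either time, and the log2 fold changes of −0.73 (SE 0.21, adjusted p = 0.23) and −0.85 (SE 0.26, adjusted p = 0.19) did not pass. DESeq2 called both, at adjusted p = 0.038 and 0.020. At 72 h in PkmΔDRE the cholangiocyte marker sum was 191.5 to 289.6 CPM in vehicle and 80.8 to 135.4 CPM in TCDD, and the stellate cell and fibroblast sum 29.4 to 80.4 and 120.9 to 173.0 CPM, without overlap in either; their part in the Rnf43 and Lect2 values was not tested. In WT the log2 values of Rnf43 at the same times were −0.42 and −0.39, with overlapping libraries.

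The other members gave no call. Znrf3 was above 0 at 8 of 9 times in WT, by at most 0.33 on the log2 scale, and at 5 of 9 in PkmΔDRE. Tbx3 ranged from −0.45 to 0.38 in WT and from −0.32 to 0.36 in PkmΔDRE. Slc1a2 ranged from −0.66 to 0.51 in WT and from −1.53 to 0.91 in PkmΔDRE.

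Oat in PkmΔDRE at 96 h had the largest value of any tested member, −2.89 (SE 1.0, adjusted p = 0.64), which rested on 1 library. The vehicle libraries were at 10.3, 12.5, 8.89 and 187 CPM, and without library 4, whose Cyp2e1 was 2704 CPM against at most 1.43 CPM in the other 3, the value was −0.50. The lowest Slc1a2 value came from the same comparison, where library 4 of the vehicle group held 3.7 CPM against 0.607 to 0.835 CPM in the others. The highest Slc1a2 value, 0.91, was at 4 h in PkmΔDRE. There the vehicle library that stood apart was the lowest of its group, at 0.652 CPM. Axin2 was tested with TCDD at only 2 times under each label, Nkd1 and Lgr5 at 1 time in WT only and Rhbg at none, so a TCDD effect on these 4 was mostly not detectable at this depth.

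**Figure D5:**
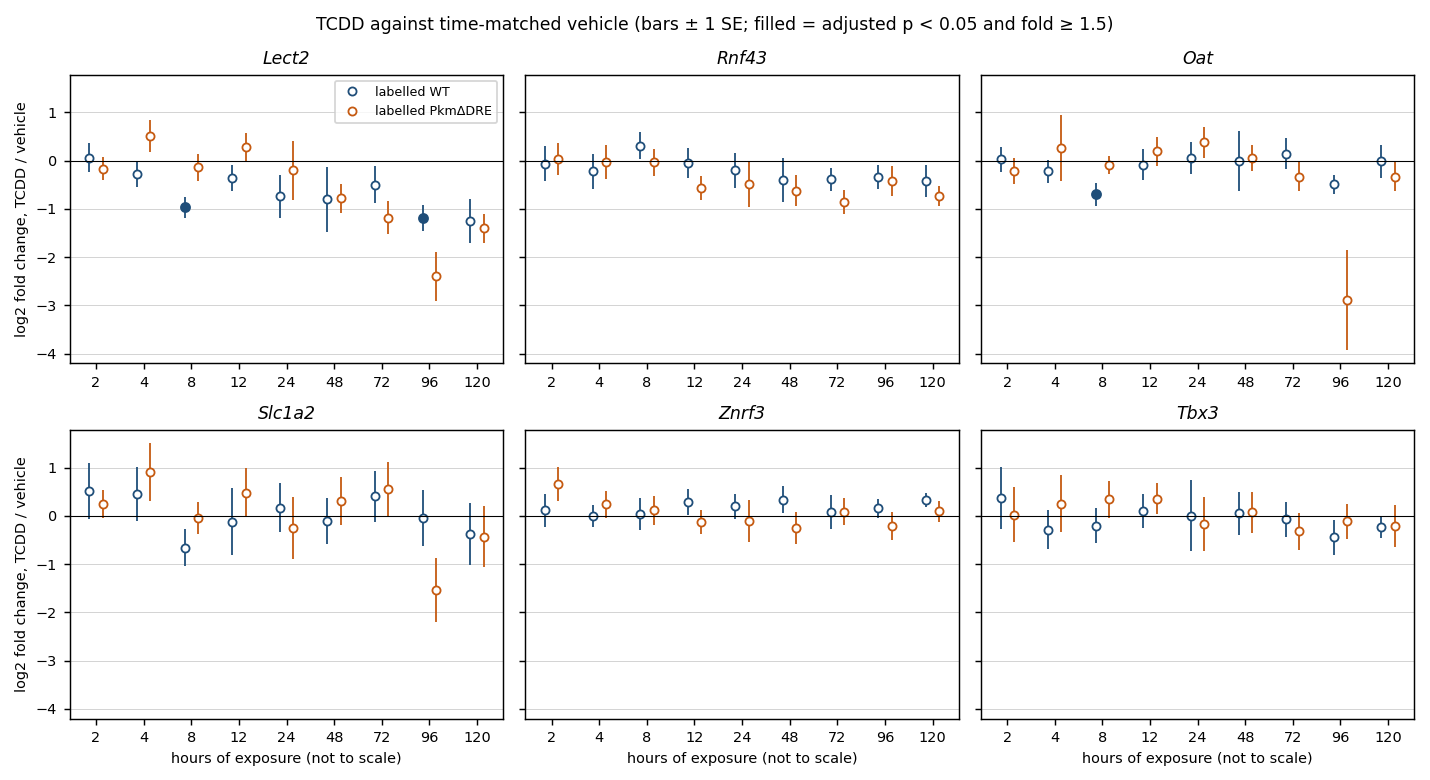
Log2 fold change of TCDD over time-matched vehicle, with bars of 1 SE, for the 6 members tested at all 9 times; filled points passed the test. Lect2 is called at 8 and 96 h and Oat at 8 h in WT, and the Oat point at 96 h in PkmΔDRE is −2.89 with a wide error.

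Among the lists, Wnt pathway components had 6 of 24 higher and none lower with TCDD at 8 h in WT, beside 23.8% of all genes called higher. Tcf7l2 was called higher at 8 h (1.42, SE 0.38) and at 96 h (0.92, SE 0.17) in WT. At 96 h 3 of 6 other beta-catenin targets were lower, beside the 5% of all genes, among them Ccnd1, the cell cycle gene for cyclin D1, by −1.42 (SE 0.097), and Ccnd1 was also called lower at 72 h in PkmΔDRE, by −1.86 (SE 0.31). Glul was called lower at 24 h in WT, by −0.94 (SE 0.13, adjusted p = 0.015), where no member was called. Of the other pericentral genes, 1 of 15 was higher and 3 lower at 8 h in WT; the higher one was Cyp1a2, itself an AHR target.

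The third question was whether the response to TCDD, or the level without it, differed between the labels. In the test of the difference in response at each time, 0 of 63 member tests were called by edgeR and 0 by DESeq2, and 1 had an unadjusted p below 0.05: Oat at 96 h, which rested on the PkmΔDRE vehicle library named above. The share of all genes called was 0% at 2, 4, 8, 12, 24, 96 and 120 h, 0.00715% at 48 h and 0.00695% at 72 h. At 96 h 1930 of 14771 genes had an unadjusted p below 0.05. So the calls of Lect2 and Oat in WT alone are not shown to differ between the labels.

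In vehicle libraries the level of the members did not pass the test between labels at any time, with 0 of 63 called by edgeR, 11 at an unadjusted p below 0.05 and 1 called by DESeq2. The share of all genes called was 0% at 2, 4, 24, 48, 72, 96 and 120 h, 0.0075% at 8 h and 1.74% at 12 h. The 11 were 3 of 7 members at 4 and at 8 h, 2 of 6 at 12 h and 3 of 6 at 96 h. The genes with an unadjusted p below 0.05 at these times were 1371 of 13214, 1381 of 13333, 2555 of 13469 and 1738 of 14771. The clearest difference was in Slc1a2 at 8 h, with 17.7, 17.4, 11.3 and 9.69 CPM in WT and 3.08, 3.95, 2.66 and 3.01 CPM in PkmΔDRE. Every PkmΔDRE library was below every WT library, and the log2 difference of PkmΔDRE from WT was −2.13 (SE 0.36, adjusted p = 0.058), which passed with DESeq2 and without the filter on low counts. It did not pass under the other scalings or in 1 fit of all libraries. Leaving out 1 library at a time, it passed in 4 of 16 fits, with an adjusted p up to 0.39. Pkm went against the labels at 8 h and also at 12, 24 and 48 h, and the direction of the Slc1a2 difference rests on those labels. At 4 h the same difference was −1.80 and at 12 h −1.44, with overlapping libraries at both times. Library 4 of the 4 h PkmΔDRE vehicle group, which stood apart in Oat, was the lowest of its group in Slc1a2. It held 0.652 CPM, against a group mean of 3.80 CPM. Lect2 and Oat at 8 h were lower in PkmΔDRE as well, at −0.78 (SE 0.26, adjusted p = 0.38) and −0.82 (SE 0.22, adjusted p = 0.32).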

How the data were processed

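RNA-Seq of primary mouse hepatocytes gave 144 libraries, each a table of raw gene counts deposited by the authors from STAR, of which the unstranded column was used. The submitters' processing notes name FastQC 0.11.3, Trimmomatic 0.39, STAR 2.7, DESeq2 and the GRCm39 build. Pairs that were unmapped, mapped to several places or not assigned to a single gene were left out (16.8% to 48.0% of all pairs, median 24.2%), and those mapped uniquely to no gene were 2.88% to 21.9% of unique pairs. Groups came from the label, treatment and hour of each sample, and libraries of a group are numbered in listed order, which the labels do not give as a pairing. The labels name a 12-well plate and the protocol text a 6-well plate.

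The 10 members and the 14 gene lists (142 genes) were chosen with earlier results of these data known. The lists were the members, other pericentral genes, periportal genes, Wnt pathway components, Wnt ligands and R-spondins, secreted Wnt antagonists, other beta-catenin targets, AHR targets, the targeted gene Pkm and markers of hepatocytes, endothelium, macrophages, stellate cells with fibroblasts, and cholangiocytes. From lists other than the members the text names genes fixed by a rule (Glul, Cyp2e1, Ctnnb1, Lgr4, Tcf7l2, Wnt2, Wnt9b, Rspo3, Cyp1a1, Pkm, Alb and Pecam1) and at most the 2 called genes of largest change per list and comparison. The genes most like each member were the 3 of highest Spearman correlation over group means, of which all are named for some members and the first for the others, and 1 gene is not reported here.

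Counts were tested in R 4.3.3 with edgeR 4.0.16 (glmQLFit with robust estimation, glmQLFTest) after TMM scaling and filterByExpr with a count minimum of 10, and p-values were adjusted by Benjamini-Hochberg over all genes tested. A gene was called at an adjusted p below 0.05 and a fold change of at least 1.5. TCDD was compared with vehicle in the 8 libraries of a label and time, the labels and their difference in response in the 16 libraries of a time, and time points in the 36 vehicle libraries of a label. CPM values are counts per 1000000 of the total scaled by TMM over all libraries. The SE of a fold change is its size over the square root of F. Intervals of a count of 0 use 3 counts. No 2 libraries held identical counts.

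The tests were also run on simulated counts. The change given there was larger than any TCDD change called in the members, and recovery at the size of those calls was not tested. Every gene was given the same spread between libraries, and no library was made to stand apart from its group. Recovery at a larger spread, as for Lect2 in PkmΔDRE vehicle at 24 h (mean 23.8 CPM, SD 18.9), was not tested either. Of genes given a change of 2 on the log2 scale, 97.9% of 194 were recovered with 7 false calls in the WT 8 h comparison (12484 genes), 96.2% of 185 with 6 in WT from 2 to 120 h (14754 genes), and 65.3% of 196 with 5 in the difference in response at 8 h (12971 genes). Alternatives were DESeq2 1.42.0, other scalings, no filter, shared fits, a surrogate variable (sva 3.50.0), a covariate for the share of pairs on no gene, leaving out each library, and the listed order as a block. Promoter windows came from RefSeq tables of GRCm38.p6, matched by symbol.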

Additional observations from a re-analysis of the deposited data

Results flagged for a closer look

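In groups of 4 libraries of the 6 members with a mean of at least 1 CPM, the gap of the highest or lowest library to its neighbour was compared with the range of the group by Dixon's test. Of 216 groups 13 held a library past the 95% limit, where chance gives 10.8. In each the library was the highest of its group.

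The most extreme was Oat in PkmΔDRE vehicle at 96 h, at 187 CPM against 8.89 to 12.5 CPM in the other 3 libraries, and the same library was the highest for Slc1a2, at 3.70 CPM. Lect2 had such a library in WT with TCDD at 12 h (35.3 CPM) and at 120 h (4.36 CPM), and Oat in WT with TCDD at 8 h (140.97 CPM) and 120 h (8.76 CPM). Those of Oat at 8 h and Lect2 at 120 h lay within the vehicle range. Tbx3 had one in 4 TCDD groups, at 4.46 CPM (WT, 4 h), 5.25 CPM (WT, 72 h), 4.09 CPM (PkmΔDRE, 8 h) and 2.59 CPM (PkmΔDRE, 24 h). Rnf43 in PkmΔDRE vehicle at 48 h reached 10.996 CPM, and Znrf3 reached 10.55 CPM in PkmΔDRE vehicle at 2 h and 8.00 CPM in PkmΔDRE with TCDD at 48 h.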

How the results depend on the processing

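The fall of Oat, Slc1a2 and Lect2 from 2 to 120 h was called under both labels in every alternative run. The TCDD calls were less stable: 1 fit of all libraries gave 0 member calls in WT, 2 in PkmΔDRE and 2 between labels, where the reported counts are 3, 0 and 0, and 1 fit per label gave 0 and 2 with or without 1 surrogate variable. DESeq2 gave 5 in PkmΔDRE and 1 between labels, no filter on low counts 2 and 2, and the covariate for pairs on no gene 2 in PkmΔDRE (Lect2 at 72 and 120 h) and 2 in WT (Lect2 at 8 and 120 h, with Lect2 at 96 h and Oat at 8 h lost). The cause of these differences was not tested. Leaving out 1 library at a time gave 2 to 4 calls in WT, 0 to 1 in PkmΔDRE, 0 to 0 for the difference in response, 0 to 1 between labels, and 13 to 18 and 10 to 12 for culture time in WT and PkmΔDRE. Without the 2 PkmΔDRE vehicle libraries that stood apart (chosen after seeing the data), TCDD gave 1 call in PkmΔDRE, Lect2 at 96 h, and culture time gave 16. Without the WT libraries whose Cyp1a1 went against their treatment label, culture time in WT gave 16 as before. At the times that held these libraries, Lect2 at 96 h was then the only TCDD call in WT. The fall of Oat from 2 to 8 h in PkmΔDRE was lost in 15 of 16 fits without 1 library. Library totals (added after seeing the data) reversed Rnf43 in PkmΔDRE from 2 to 120 h to 0.19.

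The listed order of libraries as a replicate block (added after seeing the data) gave 4 calls in WT, Lect2 at 24 h being the added one, and 0 in PkmΔDRE. The order is not a pairing given by the labels: libraries of equal number correlated above 0.1 in 49 of 72 pairs (from −0.41 to 0.88), and in every pair in 4 of 18 comparisons. Depth limits Axin2, Nkd1, Lgr5 and Rhbg, which had more than 3 reads in 78, 93, 44 and 18 libraries.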
